A study of Rattus norvegicus with 70 samples.

Results

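Adipose tissue of air-exposed rats was set against 5 other tissues of air-exposed rats from the same study: lung, liver, adrenal gland, hypothalamus and skeletal muscle. The adipose group held 5 libraries, those labelled air 2, 5, 6, 9 and 12, and was chosen by its labels alone; it is 5 of the 34 air libraries and of the 68 libraries with a column in the deposited tables, out of 70 that the labels name. The other air groups held 6 lung, 6 liver, 5 adrenal, 6 hypothalamus and 6 muscle libraries. All came from male Wistar-Kyoto rats, an inbred strain, which were exposed to air for 4 h. The rest of the series breathed ozone at 0.8 ppm for 4 h and enters only where ozone is named. The labels do not name the fat depot or the muscle, give no age, and state that 5 adipose air samples passed quality control. RNA was isolated with a different kit for adipose, for muscle, for liver and lung, and for hypothalamus and adrenal, and each tissue was tabulated apart. Tissue and extraction kit therefore cannot be told apart, and only large differences are read here.

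White adipocytes store triglyceride in a droplet coated by perilipin and CIDE proteins. They fill it by taking up fatty acids that lipoprotein lipase frees from circulating lipoproteins and by making their own, and empty it by lipolysis under adrenergic and insulin control. They also secrete hormones such as leptin and adiponectin, and sit among progenitors, vessels, macrophages and a basement membrane.

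Levels are given as RPM, reads per 1000000 reads in genes, so each is a share of its library, and levels of different genes are not compared. Values for adipose follow the order of libraries 2, 5, 6, 9 and 12. Air libraries held 8854272 to 18848151 reads, and adipose libraries 14667492 to 18848151. The labelled tissue carried its defining genes: Adipoq, Lep, Plin1, Cidec, Fabp4, Lipe, Pparg, Cfd and Adrb3 were each higher in adipose than in all 5 other tissues. Markers of some other tissues were uneven among the adipose libraries. The summed level of 10 skeletal muscle genes was 15587, 2729, 190, 320 and 981 RPM, against 121763 to 184411 in muscle and at most 90.4 in any lung, liver, adrenal or hypothalamus library. The summed level of 15 mesothelium genes (the lining of body cavities and visceral fat) was 55.7, 984, 43.0, 422 and 27.3 RPM in adipose, against 336 to 653 in lung and 1031 to 1695 in hypothalamus, which also expresses some of them. Adipose libraries 2 and 5 were thus the highest in muscle genes, and 5 and 9 in mesothelial genes, and the main counts are given with and without them. All 5 adipose libraries exceeded 90.4 RPM in muscle genes, so a set without 2 and 5 still holds some muscle signal. Hepatocyte genes summed to 451 to 675 RPM in adipose, against 134936 to 160783 in liver, alveolar genes to 8.17 to 19.2, against 16679 to 25946 in lung, and neuron genes to 4.17 to 9.27, against 3839 to 5180 in hypothalamus. In bulk tissue, fewer cells of a type and less RNA per cell cannot be told apart.

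Of 16503 genes tested, 160 were higher in adipose than in every one of the 5 other tissues, 0.97% of the genes tested, and 4 were lower, 0.0242%. A gene was counted when its difference on the log2(RPM + 1) scale was at least 2 with an adjusted p under 0.05 (limma, Benjamini-Hochberg adjustment over all genes) in each of the 5 comparisons. The genes higher in adipose stood apart by a median of 2.75 log2 units from the tissue next highest, where the rule itself required at least 2. Over all genes tested the median was −1.0. The difference reached 3 for 72 genes, 4 for 26 and 5 for 16. All 5 adipose libraries lay above all 29 other libraries for 157 of the 160. Such separation held for 652 genes in all, 3.95% of those tested. The exceptions were Pla2g2a, a secreted phospholipase, and the entries Rn60_14_0076.1 and MGC109340, named after their values were seen. The 160 genes held 12.5, 11.0, 11.5, 11.0 and 12.4% of adipose reads, a mean of 11.7% ± 0.75 (SD, n = 5), against 0.94% ± 0.15 in lung, 0.33% ± 0.032 in liver, 0.51% ± 0.044 in adrenal (n = 5), 0.26% ± 0.011 in hypothalamus and 0.62% ± 0.077 in muscle (SD, n = 6 otherwise). The genes were picked for a higher level in adipose, so their larger share there follows from the rule. The rule also favoured their separation from the other libraries. The next highest tissue was muscle for 47 of the genes, lung for 46, adrenal for 38, hypothalamus for 19 and liver for 10. Without adipose libraries 2 and 5 the count was 174, and without 5 and 9 it was 149. With a trimmed-mean (TMM) scaling of the libraries 127 genes were higher, 111 of them among the 160.

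**Figure D1:**
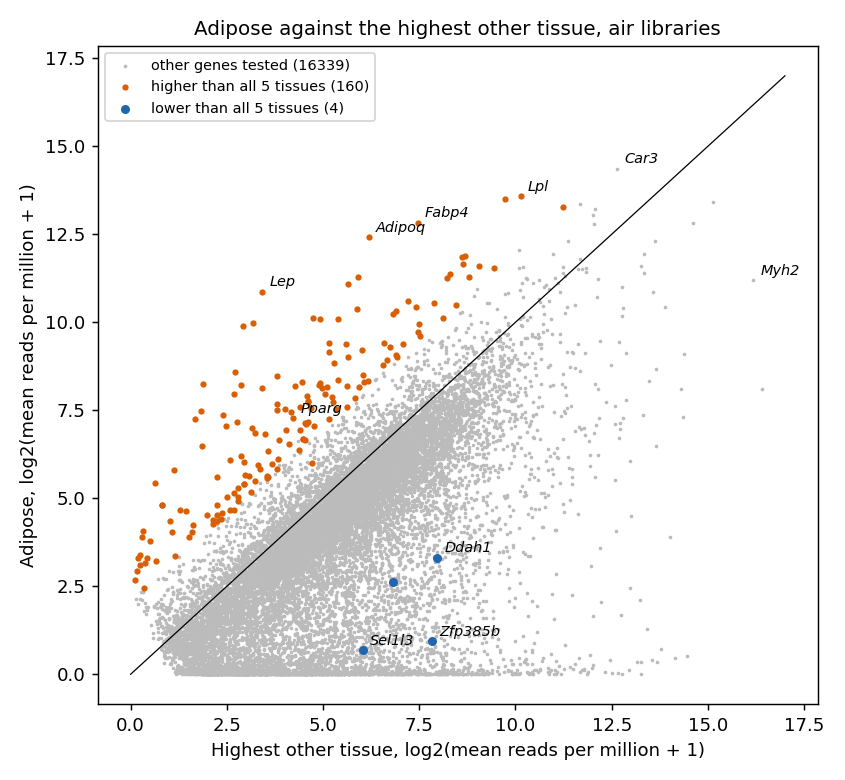
Each point is 1 of the 16503 genes tested: the vertical axis is log2(mean RPM + 1) in the 5 adipose air libraries and the horizontal axis the same for whichever of the 5 other tissues was highest. The 160 genes higher in adipose than in all 5 are drawn in orange above the diagonal line of equality, with Lep furthest from it, and the 4 lower genes in blue below it.

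The gene that stood furthest apart was Lep, the hormone leptin, which signals fat stores to the hypothalamus. It had 2721, 1222, 2003, 1670 and 1749 RPM in adipose, against 1.17 to 18.4 with a median of 8.7 in muscle, the next highest tissue, and at most 10.7 in any other library. The difference to muscle was 7.68 ± 0.47 log2 units (SE; largest adjusted p of the 5 comparisons 2.84e-15, limma). Sncg, encoding gamma-synuclein, followed with 575, 1370, 526, 1201 and 1113 RPM in adipose, against 2.84 to 11.7 in adrenal (6.99 ± 0.43, adjusted p = 1.06e-15, limma). Libraries 5, 9 and 12 were the high ones for Sncg, and the same 3 were high for Rbp7, a retinol-binding protein, which had 125, 408, 170, 385 and 422 RPM in adipose, against 1.48 to 4.21 in muscle (6.25 ± 0.31, adjusted p = 3.16e-18, limma). Mpo, which encodes the granule enzyme myeloperoxidase of neutrophils and monocytes, had 412, 400, 346, 289 and 488 RPM in adipose, against 3.22 to 8.24 in adrenal and at most 6.69 elsewhere (5.92 ± 0.36, adjusted p = 7.24e-16, limma). Its 5 adipose libraries were close to each other and none approached the other tissues. Oxtr, the oxytocin receptor, had 292, 128, 217, 135 and 123 RPM in adipose, against at most 4.03 in any other library, including hypothalamus (5.59 ± 0.25). Mest, an imprinted gene expressed in growing fat, had 230 to 349 RPM in adipose, against at most 14.8 elsewhere (4.75 ± 0.22). Slc1a5, a glutamine transporter, had 912 to 1330 RPM in adipose, against at most 85.3 elsewhere, in lung (4.83 ± 0.32). The 20 genes furthest apart also held Slc7a15, an amino acid transporter, Ankef1, Grifin and the unnamed entry LOC691485, each 4.76 to 5.63 log2 units above the next tissue, and all 20 kept the call under each alternative listed in the closing section.

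**Figure D2:**
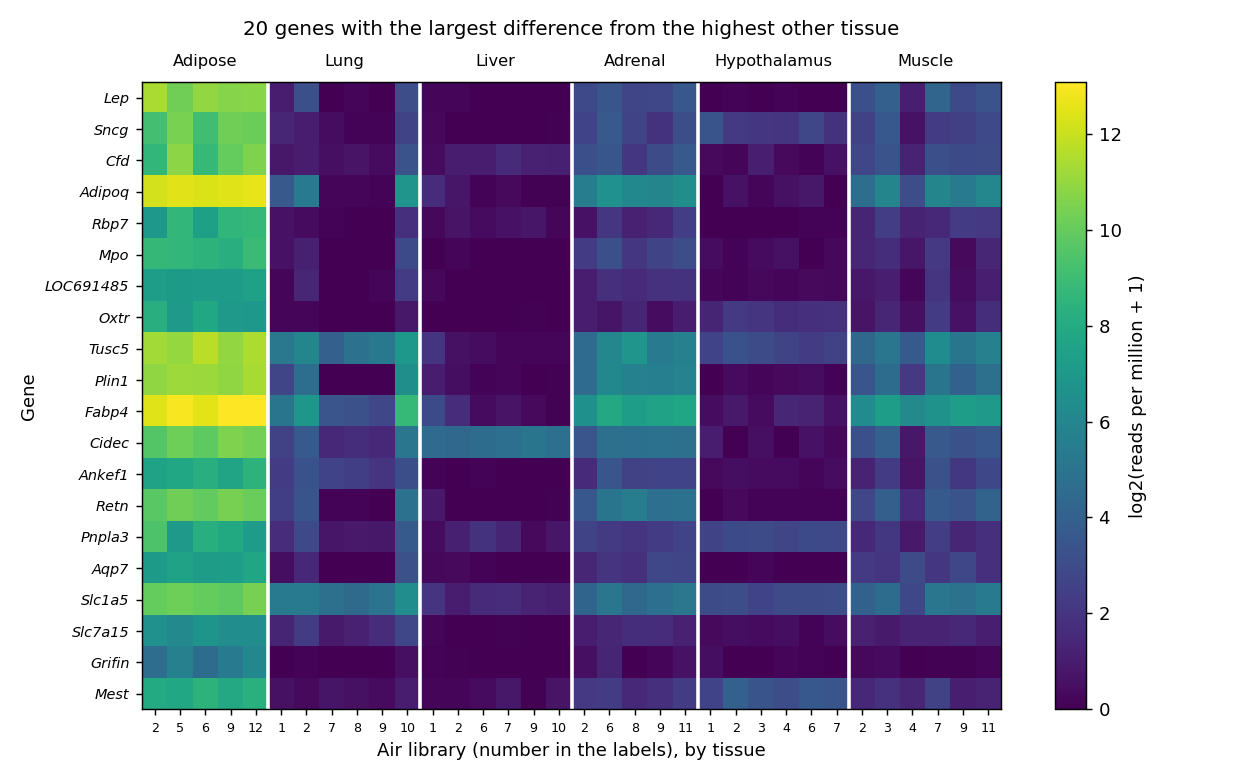
Heatmap of log2(RPM + 1) for the 20 genes with the largest difference between adipose and the next highest tissue (rows) in the 34 air libraries (columns, adipose first). Every row is brightest in the 5 adipose columns; the adrenal and muscle columns, and lung columns 1, 2 and 10, show low levels of several adipocyte genes.

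Among 22 adipokines and other proteins secreted by adipocytes that were tested, 6 were higher in adipose than in all 5 tissues, none was lower, and the list's median difference to the next highest tissue was 0.28, beside −1.0 over all genes. Over all genes tested the share higher than in all 5 was 0.97%, the figure to set beside each list's count here and below. The 6 adipokines were Lep, Adipoq, Cfd, Retn, Serpina12 and C1qtnf9. Adipoq, the insulin-sensitizing hormone adiponectin, was steady among adipose libraries at 4628, 5833, 5123, 5526 and 6095 RPM, against 43.3 to 98.3 in adrenal and up to 112 in 1 lung library (6.28 ± 0.83, adjusted p = 9.33e-08, limma). Cfd, the complement protease adipsin, varied more, with 398, 1762, 440, 1005 and 1473 RPM in adipose, against 3.12 to 11.4 in adrenal (6.65 ± 0.45, adjusted p = 9.67e-15, limma). Even its lowest adipose library lay far above every other tissue. Retn, resistin, had 852, 1208, 962, 1346 and 1069 RPM in adipose, against 10.7 to 46.3 in adrenal (5.29 ± 0.61, adjusted p = 5.49e-09, limma). Serpina12, the serpin vaspin, was a low-level gene, with 8.12, 9.17, 8.05, 13.0 and 5.68 RPM in adipose, against at most 0.565 in any other library (3.07 ± 0.13, adjusted p = 2.54e-20, limma). C1qtnf9, an adiponectin paralog, had 31.0 to 39.3 RPM in adipose, against 5.69 to 11.7 in muscle (2.09 ± 0.18), and lost its call under TMM scaling. Several genes called adipokines were shared with other tissues. Rbp4, the plasma retinol carrier, had 974 to 1435 RPM in adipose, against 1389 to 3330 in liver (−1.01 ± 0.47). Agt, angiotensinogen, overlapped liver, with 589 to 1156 RPM in adipose, against 650 to 1067 in liver (−0.016 ± 0.37, adjusted p = 0.977, limma). Nampt did not pass in either direction, with 91.5 to 128 RPM in adipose, against 121 to 190 in muscle. Lcn2, an iron-siderophore-binding lipocalin, had 9.07 to 18.6 RPM in adipose, against 128 to 237 in lung (−3.82 ± 0.28), and Apln, a vasoactive peptide, had 13.0 to 83.0, against 159 to 255 in lung (−2.51 ± 0.44). Nrg4, an adipose-secreted growth factor, missed the threshold at 1.95 ± 0.15, with 5.07 to 8.05 RPM in adipose, against 0.441 to 1.63 in lung, and passed without libraries 2 and 5 (2.09) or 5 and 9 (2.08).

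RefSeq start-site windows (GRCr8, 250 bases before to 50 after each gene's start) were found for 112 of the 160 genes. The windows of 2 secreted proteins and 2 droplet proteins are printed because each holds the C/EBP motif TTNNGCAA (reverse TTGCNNAA), for the adipogenic C/EBP factors, such as the one encoded by Cebpa. Capitals mark the match, and each runs 5′ to 3′ on the gene's strand. The Lep window is chr4:58626288-58626587 on the plus strand, Plin1 chr1:143086099-143086398 on the minus strand, Cidec chr4:148137066-148137365 on the minus strand, and Serpina12 chr6:128732000-128732299 on the minus strand.
Lep: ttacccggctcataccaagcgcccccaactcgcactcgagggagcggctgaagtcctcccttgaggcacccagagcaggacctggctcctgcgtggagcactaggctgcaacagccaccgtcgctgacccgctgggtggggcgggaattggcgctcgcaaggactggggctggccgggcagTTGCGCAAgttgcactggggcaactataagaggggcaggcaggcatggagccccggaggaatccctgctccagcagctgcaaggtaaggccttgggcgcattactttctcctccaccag
Plin1: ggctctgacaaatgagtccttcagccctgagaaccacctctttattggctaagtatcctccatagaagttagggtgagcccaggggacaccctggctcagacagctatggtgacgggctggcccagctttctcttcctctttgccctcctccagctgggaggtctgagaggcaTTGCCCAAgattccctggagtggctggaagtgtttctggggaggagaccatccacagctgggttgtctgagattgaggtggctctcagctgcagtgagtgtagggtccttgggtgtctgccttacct
Cidec: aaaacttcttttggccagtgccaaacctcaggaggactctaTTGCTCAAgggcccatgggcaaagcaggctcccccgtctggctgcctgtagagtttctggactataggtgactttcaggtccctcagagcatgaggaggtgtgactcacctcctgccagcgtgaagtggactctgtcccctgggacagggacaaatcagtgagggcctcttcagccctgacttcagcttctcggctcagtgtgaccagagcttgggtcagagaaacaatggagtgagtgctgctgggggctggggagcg
Serpina12: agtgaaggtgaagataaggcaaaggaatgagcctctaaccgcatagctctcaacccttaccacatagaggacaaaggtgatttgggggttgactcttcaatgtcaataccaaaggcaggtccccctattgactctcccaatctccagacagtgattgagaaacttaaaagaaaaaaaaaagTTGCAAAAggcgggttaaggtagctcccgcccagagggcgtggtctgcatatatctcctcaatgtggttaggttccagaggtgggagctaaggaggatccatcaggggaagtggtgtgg
The match lies at bases −69 to −62 from the start in both Lep and Serpina12. In Plin1 it lies at −77 to −70 and in Cidec at −209 to −202. The marked letters in Lep fit both the forward and the reverse form, and those in the other genes printed fit the reverse form alone. Of the 112 windows, 12 held the motif, 10.7%, against 10.5% of all 27457 windows of the same length. The PPAR direct repeat, AGGNCA and again AGGNCA after any 1 base, searched on both strands, was in 1 of the 112, Tpsb2, 0.893%, against 0.412% of all windows. The TATA motif TATAAA, also searched on both strands, was in 14.3% of the 112 windows and in 14.3% of all. A match describes letters and is not a shown binding site.

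Of 13 lipid droplet coat and droplet-size genes, 4 were higher in adipose than in all 5 tissues: Plin1, Cidec, Plin4 and Fitm2. None was lower, and the list's median difference to the next tissue was −0.17. Plin1, which guards the adipocyte droplet against lipases, had 1909, 2258, 2208, 1911 and 2667 RPM in adipose, against 22.6 to 66.6 in adrenal and up to 91.4 in 1 lung library (5.52 ± 0.79, adjusted p = 3.56e-07, limma). Cidec, which fuses droplets into a single large one, had 755, 1152, 912, 1477 and 1320 in adipose, against 20.6 to 33.0 in liver (5.38 ± 0.49, adjusted p = 3.01e-11, limma). Plin4, a perilipin shared with muscle, had 2072, 2697, 1993, 2941 and 3563 in adipose, against 247 to 436 in muscle (3.07 ± 0.49, adjusted p = 1.58e-06, limma). The other perilipins did not separate fat in this way. Plin2, the perilipin of most cell types, had 101 to 134 RPM in adipose, against 64.8 to 186 in adrenal (−0.17 ± 0.23, adjusted p = 0.55, limma). Plin5, the perilipin of oxidative tissues, had 3.93 to 9.32 in adipose, against 8.12 to 38.6 in muscle (−0.98 ± 0.35). Within the CIDE family Cidea had 5.20 to 12.3 in adipose, against 3.32 to 9.28 in adrenal (0.28 ± 0.29, adjusted p = 0.418, limma). Cideb was at 0.0682 to 0.604 in adipose, against 58.5 to 89.0 in liver (−5.93 ± 0.21). G0s2, an inhibitor of the triglyceride lipase Pnpla2, was higher than in liver by 1.42 ± 0.31, under the threshold, with 233 to 403 in adipose, against 51.8 to 179 in liver. Fitm2, which buds droplets from the endoplasmic reticulum, had 402 to 605 in adipose, against 92.9 to 184 in muscle (2.11 ± 0.20), and lost its call under TMM scaling.

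The fatty-acid-binding proteins, which carry fatty acids inside cells, divided by tissue. Fabp4, the adipocyte and macrophage form, had 5470, 7881, 5979, 8627 and 8535 RPM in adipose, against 93.9 to 235 in adrenal and up to 434 in 1 lung library (5.41 ± 0.70, adjusted p = 5.38e-08, limma). It was the single member of 5 tested that was higher in adipose than in all 5 tissues; the list's median was −3.82. Fabp5, the epidermal form, had 43.0 to 75.9 in adipose, against 25.9 to 46.0 in lung (0.60 ± 0.20), and these ranges overlapped. Fabp3, the muscle form, had 3.27 to 13.5 in adipose, against 39.4 to 220 in muscle (−3.82 ± 0.35). Fabp1, the liver form, was at most 0.232 in adipose, against 234 to 954 in liver (−9.15 ± 0.55). Fabp7, the brain form, was listed at 0 in all 5 adipose libraries, against 76.7 to 216 in hypothalamus and 86.0 to 168 in liver. Fabp2, Fabp6, Fabp12 and Pmp2 were under the filter on low values, and the tenth member was not in the tables.

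**Figure D3:**
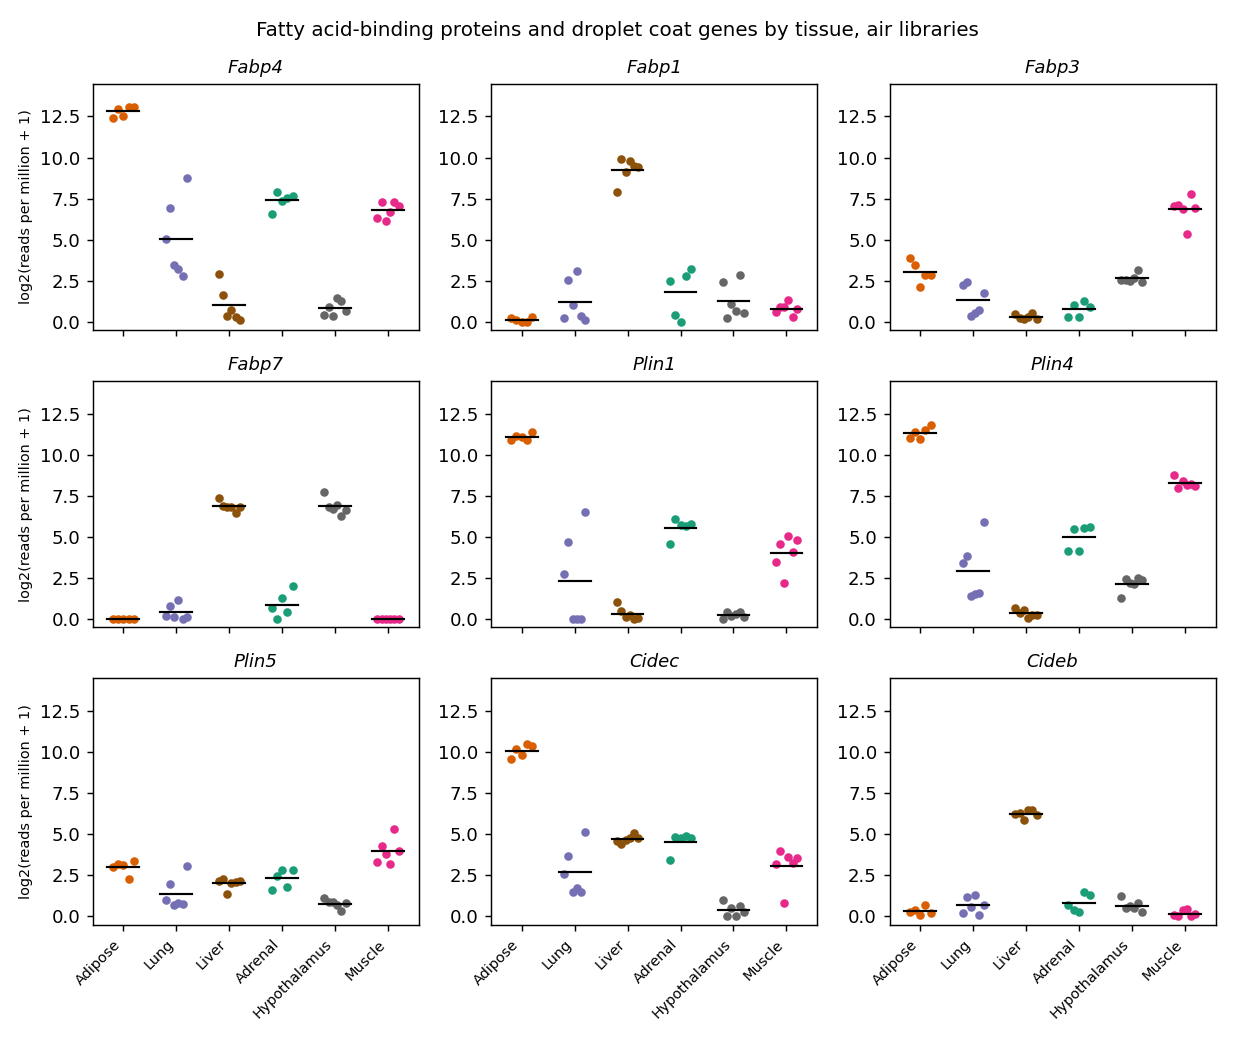
Log2(RPM + 1), 1 point per library, for the fatty-acid-binding, perilipin and CIDE genes in adipose and the 5 other tissues, air libraries only. Fabp4, Plin1, Plin4 and Cidec stand highest in adipose, Fabp3 and Plin5 in muscle, and Fabp1 and Cideb in liver.

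Lipolysis genes gave the largest count of any list relevant to fat metabolism: 8 of 18 were higher in adipose than in all 5 tissues, none lower, with a median difference of 1.89 to the next tissue. Adipose had the highest mean of the 6 tissues for 13 of the 18, beside 13.7% of all genes tested (2261). All 3 enzymes of the cascade were among the 8. Pnpla2, which removes the first fatty acid from triglyceride, had 1123, 1685, 1330, 1643 and 2054 RPM in adipose, against 113 to 283 in lung (3.47 ± 0.23, adjusted p = 3.63e-15, limma). Its counts ran in step with those of the entry LOC100911615 and its level is uncertain for that reason. Lipe, hormone-sensitive lipase, had 1001, 1506, 1043, 1512 and 1814 RPM in adipose, against 80.3 to 227 in adrenal, where it frees cholesterol from its esters (3.04 ± 0.24 log2 units, adjusted p = 6.16e-13, limma). Mgll, which removes the last fatty acid, had 731, 609, 656, 606 and 809 in adipose, against 59.9 to 123 in adrenal (2.86 ± 0.17, adjusted p = 2.08e-16, limma). Of the receptors, Adrb3, the adipocyte beta-3 adrenergic receptor, had 297, 368, 419, 261 and 434 RPM in adipose, against 5.95 to 19.6 in adrenal and up to 23.9 in 1 lung library (4.74 ± 0.57, adjusted p = 1.17e-08, limma). Hcar1, the lactate receptor that restrains lipolysis, had 38.4 to 84.1 in adipose, against 2.25 to 11.1 in hypothalamus (3.17 ± 0.31). Its paralog Hcar2, the ketone body and niacin receptor, fell just outside the threshold, at 2.00. Npr3, which clears natriuretic peptides, had 520, 175, 283, 177 and 285 in adipose, against 17.2 to 63.2 in lung (3.07 ± 0.31). Pde3b, the phosphodiesterase through which insulin lowers cyclic AMP, had 282, 230, 322, 271 and 335 in adipose, against 39.0 to 73.6 in liver (2.27 ± 0.20, adjusted p = 2.31e-12, limma), and lost its call under TMM scaling. Aqp7, the channel through which glycerol leaves the adipocyte, had 139, 185, 144, 152 and 206 in adipose, against 2.50 to 7.09 in muscle (5.04 ± 0.37). Without adipose libraries 2 and 5 the list's count was 9 of 18, with Hcar2 added. Under TMM scaling it stayed at 8, with Pde3b lost and Hcar2 added (2.04). Lipe, Mgll and Pde3b were picked for description after their values were seen.

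Genes of fatty acid uptake were mostly shared with other tissues: 4 of 19 were higher in adipose than in all 5, none lower, with a median of −0.85. They were Lpl, Gpihbp1, Cd36 and Angptl4. Lpl, lipoprotein lipase, had 15123, 8750, 17447, 7963 and 11686 RPM in adipose, against 644 to 1824 in muscle (3.46 ± 0.34, adjusted p = 6.36e-11, limma), and held 1.22% ± 0.41 of adipose reads (SD, n = 5). Gpihbp1, the capillary protein that carries Lpl across the endothelium, had 59.3, 143, 68.0, 156 and 134 in adipose, against 6.19 to 18.1 in lung (3.28 ± 0.24). Cd36, a fatty acid translocase, had 2109 to 3017 in adipose, against 328 to 545 in lung (2.48 ± 0.19), and Angptl4, a secreted Lpl inhibitor, had 312 to 625, against 70.5 to 113 in liver (2.21 ± 0.30). Under TMM scaling Cd36 and Angptl4 no longer passed. The transporters Slc27a2 and Slc27a5 belonged to liver, with at most 1.64 RPM in adipose, against at least 406 in liver.

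Fatty acid and triglyceride synthesis had 6 of 26 genes higher in adipose than in all 5 tissues, none lower, and a median of 0.68. They were Acaca, Fasn, Scd, Thrsp, Pnpla3 and Gpat3. Scd, stearoyl-CoA desaturase, had 25349, 5480, 13951, 6691 and 6058 RPM in adipose, against 314 to 1171 in liver (3.60 ± 0.40, adjusted p = 1.11e-09, limma). Fasn, fatty acid synthase, had 7770, 1598, 2835, 1547 and 1711 in adipose, against 429 to 568 in lung (2.24 ± 0.34, adjusted p = 7.68e-07, limma). Library 2 was the highest for both, and without it Fasn no longer passed. The lipogenesis sum was 50237 RPM in library 2, against 21438 to 30090 in the other 4 adipose libraries. It was 6767 to 8683 in liver, 2145 to 2705 in muscle and at most 11061 in any other library. Library 2 was also the one with the highest skeletal muscle sum, whose part in these values was not tested. Thrsp, a lipogenic regulator, did not follow library 2, with 4024, 4162, 2716, 3594 and 4134 in adipose, against 160 to 582 in liver (3.33 ± 0.75, adjusted p = 0.000174, limma). Pnpla3, a lipid droplet protein of the patatin family, did, with 674, 136, 290, 247 and 151 in adipose, against at most 11.9 in any other library (5.11 ± 0.41). Gpat3, which starts triglyceride assembly, had 132 to 226 in adipose, against 13.3 to 31.2 in muscle (3.25 ± 0.21). Acaca, acetyl-CoA carboxylase, picked for description after its values were seen, had 1159, 312, 357, 423 and 409 in adipose, against 81.7 to 151 in hypothalamus (2.02 ± 0.30, adjusted p = 2.67e-07, limma). It too was highest in library 2, and without that library it no longer passed, at 1.69. Without libraries 2 and 5 the list's count was 4 of 26, with Fasn and Acaca lost, and without 5 and 9 it was 7, with Gpd1 added.

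Of 21 adipogenic transcription factors 2 were higher in adipose than in all 5 tissues, none lower, with a median of −0.01. Pparg, the nuclear receptor that drives adipocyte differentiation, had 164, 139, 153, 148 and 165 RPM in adipose, against 14.8 to 21.8 in lung (3.06 ± 0.17, adjusted p = 6.98e-17, limma). Ebf1, an early adipogenic factor, had 109 to 169 in adipose, against 15.0 to 45.6 in muscle (2.64 ± 0.23), and lost its call under TMM scaling. Its paralog Ebf2 missed the threshold (1.84 ± 0.43), with 43.7 to 71.2 in adipose, against 7.23 to 29.6 in muscle. Cebpa, the partner of Pparg, had 316, 442, 356, 404 and 548 in adipose, against 83.3 to 209 in liver, a difference of 1.45 ± 0.28 that was under the threshold although the ranges did not overlap. Klf5 was a lung gene here, with 2.65 to 6.09 in adipose, against 86.9 to 155 in lung (−4.64 ± 0.37).

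Insulin response genes had 2 of 17 higher in adipose than in all 5, with a median of −0.41. Tusc5, also called Trarg1, a protein of vesicles that carry the glucose transporter GLUT4, had 2444, 2021, 3323, 1958 and 2840 RPM in adipose, against 22.9 to 111 in adrenal and up to 125 in 1 lung library (5.56 ± 0.45, adjusted p = 1.12e-12, limma). Irs3, a rodent adipocyte insulin receptor substrate, had 37.4 to 57.6 in adipose, against 8.55 to 13.5 in lung (2.07 ± 0.20), and lost its call under TMM scaling. Among caveolae genes 1 of 7 tested passed, with a list median of −0.30: Prkcdbp, also called Cavin3, had 55.1 to 102 in adipose, against 4.43 to 14.3 in adrenal (2.81 ± 0.31). Ehd2, which stabilizes caveolae at the membrane, was just under the threshold, with 398 to 501 in adipose, against 79.5 to 140 in lung (1.99 ± 0.23), and passed under TMM scaling (2.24). Cav1, the main caveolar coat protein, overlapped lung, with 2084 to 3298 in adipose, against 2186 to 3023 in lung (0.005 ± 0.44, adjusted p = 0.997, limma). Of 16 glucocorticoid prereceptor and retinoid genes tested 2 passed, with a median of −1.43: Rbp7 and Retsat, retinol saturase, which had 2407 to 3407 in adipose, against 418 to 821 in adrenal (2.12 ± 0.18) and lost its call under TMM scaling. None of 19 genes of branched-chain amino acid breakdown passed in either direction, near the share over all genes tested (0.97% higher), with a median of −0.39. Bcat2, the mitochondrial first step, came nearest, with 146 to 241 in adipose, against 101 to 157 in adrenal (0.64 ± 0.19). None of 24 Wnt, hedgehog and BMP regulators passed, again near the share over all genes tested, with a median of −0.86. Gdf10, a BMP-family ligand, and Dkk2, a Wnt antagonist, came nearest there, at 1.96 ± 0.35 over adrenal and 1.91 ± 0.18 over muscle.

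The collagen and basement membrane list had 5 of 23 tested genes higher in adipose than in all 5 tissues, none lower, with a median of 1.37, and adipose had the highest mean for 20 of the 23, beside 13.7% of all genes tested. Col5a3, a fibrillar collagen chain, had 1323, 1305, 1067, 1319 and 1604 RPM in adipose, against 41.7 to 72.1 in muscle (4.50 ± 0.22, adjusted p = 1.59e-18, limma). Nid2, a basement membrane linker, had 367, 283, 304, 290 and 304 in adipose, against 16.8 to 38.0 in muscle (3.40 ± 0.19). Lama4, the laminin chain of adipocyte and capillary basement membranes, had 552 to 742 in adipose, against 90.5 to 117 in lung (2.57 ± 0.22). Col15a1 had 767 to 1257 in adipose, against 167 to 198 in muscle (2.42 ± 0.32), and the entry for Hspg2, perlecan, had 503 to 851, against 46.5 to 169 in muscle (2.40 ± 0.32). These last 2 lost their call under TMM scaling, which left 3 of 23. Of 20 progenitor and fibroblast markers 4 passed, with a median of 0.33: Ebf1, Gsn, Pi16 and the entry PCOLCE2. Pi16, a marker of early progenitors, had 72.0, 332, 118, 325 and 89.6 in adipose, against 16.1 to 35.7 in lung (2.63 ± 0.37, adjusted p = 1.57e-07, limma). PCOLCE2, a collagen-processing enhancer, had 62.6, 129, 81.7, 168 and 72.5, against 12.0 to 28.5 in muscle (2.17 ± 0.24). Both were highest in libraries 5 and 9, the ones with the highest mesothelial sums, and without those libraries the list's count was 1 of 20; under TMM scaling it was 2. Among 11 smooth muscle and pericyte markers 1 passed: Cspg4, a pericyte proteoglycan, had 259 to 366 in adipose, against 57.6 to 79.1 in lung (2.23 ± 0.19).

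Complement genes had 2 of 19 higher in adipose than in all 5, with a median of −0.38. Besides Cfd, C4b, whose product is cleaved early in the classical pathway, had 2499, 4468, 3387, 5243 and 3392 RPM in adipose, against 139 to 825 in muscle (3.37 ± 0.30, adjusted p = 8.08e-12, limma); C4b has a near-identical copy and its count is uncertain for that reason. The complement sum was 6343, 16107, 7901, 14134 and 8313 RPM in adipose, against 22700 to 29555 in liver and at most 3112 elsewhere. Of 14 macrophage markers tested 1 passed, Clec10a, a lectin of resident macrophages, with 106, 148, 107, 253 and 88.5 in adipose, against 10.3 to 28.8 in adrenal (2.59 ± 0.29), and it lost its call under TMM scaling. The macrophage sum was 1000, 1197, 927, 1862 and 688 in adipose, against 817 to 1005 in lung, so these overlapped. None of 14 B lymphocyte and lymph node markers or of 11 T and NK markers tested passed, with medians of −2.69 and −1.85. The B lymphocyte sum was 15.5 to 35.9 RPM in adipose, against 280 to 612 in lung. None of 13 endothelial markers passed, with a median of −1.30. For the endothelial, B lymphocyte and T and NK lists, no call is near the share of 0.97% over all genes tested.

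Of the 160 genes 111 were in none of the lists, and those that follow were chosen after their values were seen. Tshr, the thyrotropin receptor, had 282, 239, 397, 280 and 379 RPM in adipose, against 18.0 to 24.2 in lung (3.83 ± 0.27, adjusted p = 3.23e-14, limma). Sucnr1, the succinate receptor, had 49.2 to 59.0 in adipose, against at most 1.61 in any other library (4.68 ± 0.13), and Gipr, the receptor of the gut hormone GIP, had 14.1 to 31.7, against 2.34 to 4.02 in hypothalamus (2.19 ± 0.14). Aoc3, a vascular and adipocyte amine oxidase, had 2801 to 3649 in adipose, against 350 to 438 in lung (3.03 ± 0.26). Lgals12, a droplet-associated galectin, had 97.8 to 161 in adipose, against at most 9.20 elsewhere (4.74 ± 0.29). Adig, adipogenin, had 17.2, 46.9, 15.7, 21.6 and 34.4 in adipose, against at most 1.49 elsewhere (3.90 ± 0.21); the entry LOC100911217 held identical values. Clec3b, tetranectin, had 417 to 843 in adipose, against 16.7 to 56.3 in lung (4.28 ± 0.28), and Chrdl1, a BMP antagonist, had 206 to 368, against 13.8 to 26.4 in lung (3.91 ± 0.28). Klf14, an imprinted transcription factor, had 5.57, 7.48, 7.98, 6.58 and 13.7 in adipose, against at most 0.764 elsewhere (2.49 ± 0.12). Fgf10, a ligand for adipocyte progenitors, had 159 to 365 in adipose, against 24.7 to 50.4 in lung (2.62 ± 0.34). The genes Mcpt1l1, Tpsb2, Tpsab1, Cpa3, Cma1 and Ms4a2, known from mast cell granules or receptors, were also among the 160. Mcpt1l1 had 123, 250, 134, 298 and 102 in adipose, against 6.29 to 19.2 in muscle (3.66 ± 0.30), and belongs to a protease family of close copies. The tryptases Tpsb2 and Tpsab1 had 11.1 to 48.7 and 6.31 to 23.9 in adipose, against at most 2.18 and 0.855 elsewhere. Both were highest in libraries 5 and 9. Cpa3, a carboxypeptidase, had 102, 105, 120, 119 and 52.2 in adipose, against 10.5 to 19.3 in muscle (2.77 ± 0.21), Cma1, a chymase, had 34.2 to 76.6, against 5.26 to 17.8 in muscle, and Ms4a2, a chain of the IgE receptor, had 12.4 to 29.6, against 2.83 to 5.90 in muscle. Cpa3, Cma1 and Ms4a2 lost their calls under TMM scaling.

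**Figure D4:**
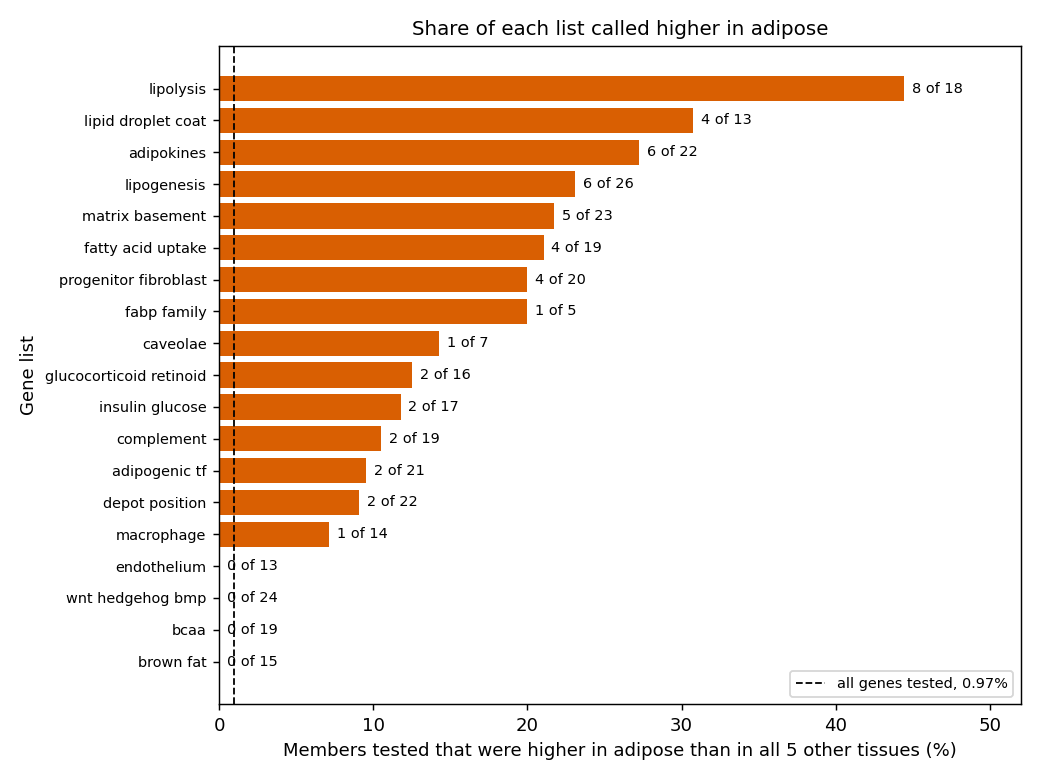
Bars give the share of each gene list's tested members that were higher in adipose than in all 5 other tissues, in percent from 0. The lipolysis, droplet coat, adipokine, lipogenesis and matrix lists have the longest bars; over all 16503 genes the share was 0.97%.

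Positional transcription factors, which mark where along the body a tissue formed, had 2 of 22 higher in adipose than in all 5, with a median of −1.20. Hoxc8 had 28.5 to 48.9 RPM in adipose, against 4.02 to 10.2 in muscle (2.47 ± 0.16), and lost its call under TMM scaling. Wt1, a factor of mesothelium and visceral fat progenitors, had 10.3, 49.4, 20.5, 31.2 and 8.51 in adipose, against at most 3.36 in any other library (2.93 ± 0.30, adjusted p = 2.69e-10, limma). It was highest in libraries 5 and 9, in which the mesothelial sum was highest too. Bnc1 had 0.849, 17.4, 0.0682, 4.89 and 0.174 in adipose, against 0.407 to 3.17 in lung, and did not pass. Tbx15, a factor of limb and trunk musculature, had 6.04 to 42.0 in adipose, highest in library 2, against 453 to 944 in muscle (−5.62 ± 0.35). Hoxc10 had 7.97 to 21.4 in adipose, against 33.5 to 45.8 in muscle (−1.38 ± 0.14).

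Of 15 brown and beige adipocyte genes tested, 0 were higher than in all 5 tissues, with a median of −1.92. Over all genes tested the share was 0.97%, so no call in a list of 15 is near it. Slc36a2 alone passed under TMM scaling (2.02) and without adipose libraries 2 and 5 (2.09). Ucp1, the uncoupling protein that makes brown fat produce heat, was at most 0.121 RPM in the 5 adipose libraries, against 21.3 to 123 in adrenal and up to 204 in 1 lung library. The difference to adrenal was −5.65 ± 0.93 (adjusted p = 4.07e-06, limma). Dio2, Zic1 and Elovl3 were at or near 0 in all 5 adipose libraries. Cox7a1, another brown fat gene, was at most 1.24 in any air library and at most 0.44 in muscle, a tissue known to express it. Slc36a2 and Ebf2 came nearest, at 1.93 ± 0.52 over adrenal and 1.84 ± 0.43 over muscle.

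The 4 genes lower in adipose than in all 5 tissues were Sel1l3, Rapgef4, Ddah1 and Zfp385b. For each, all 5 adipose libraries lay below all 29 others, a separation seen for 39 genes in all, 0.236% of those tested. The rule by which the 4 were called favours such separation. Sel1l3, a membrane protein of the SEL1-like family, had 2.33, 0.603, 0, 0.0604 and 0.0579 RPM in adipose, against 12.0 to 14.9 in lung, the next lowest tissue (−3.38 ± 0.22 log2 units, adjusted p = 1.82e-15, limma). Rapgef4, which encodes the cyclic AMP sensor EPAC2, had 5.09, 7.30, 4.43, 6.46 and 2.72 in adipose, against 33.6 to 64.3 in muscle (−2.91 ± 0.19, adjusted p = 3.09e-15, limma). Ddah1, which degrades inhibitors of nitric oxide synthase, had 6.31, 20.1, 4.50, 10.3 and 3.47 in adipose, against 48.4 to 63.7 in muscle (−2.78 ± 0.22, adjusted p = 3.34e-13, limma). Zfp385b, a zinc finger protein, had 0.743, 2.17, 0.614, 0.845 and 0.174 in adipose, against 5.20 to 18.0 in muscle (−2.43 ± 0.23, adjusted p = 1.94e-11, limma). Sel1l3 was highest in library 2, the one with the highest muscle sum. With a pseudocount of 5 in place of 1, Sel1l3 and Zfp385b lost their calls. Other settings gave more lower genes: 11 under TMM scaling, 77 with edgeR and 107 with DESeq2 on read counts. All 4 genes were among the lower ones in each of these. When the ozone-exposed libraries of the 6 tissues were compared in the same way, 185 genes were higher and 5 lower, of which 125 of the 160 and 1 of the 4, Sel1l3, were shared. Fasn, Npr3, Angptl4, C1qtnf9, Clec10a, Cspg4, Irs3, Wt1, Gipr, Klf14, Fgf10 and Gsn were among the genes described here that were not called higher in the ozone-exposed set.

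Taken one tissue at a time, adipose was higher for 635 genes and lower for 1418 against lung (3.85 and 8.59% of those tested). Against liver, 2681 were higher and 841 lower (16.2 and 5.1%), and against adrenal 1092 and 925 (6.62 and 5.61%). Against hypothalamus, 1278 were higher and 2484 lower (7.74 and 15.1%), and against muscle 2013 and 623 (12.2 and 3.78%). These splits depend on scaling. The median of all genes was 0.79 against liver and 0.63 against muscle, and near 0 under TMM, where liver gave 1407 higher and 1370 lower, muscle 798 and 1030, and lung 739 and 1077. The share of calls that were higher was thus 76.1% against liver and 76.4% against muscle, and 50.7% and 43.7% under TMM. Against lung, Adipoq (9.68), Lep (9.57) and Car3 (9.09), an abundant adipocyte and muscle carbonic anhydrase, were highest in log2 difference, and the surfactant genes Sftpa1 (−13.23) and Sftpc (−12.26) and the phosphate transporter Slc34a2 (−11.84) lowest. Against liver they were Adipoq (11.90), Fabp4 (11.80) and Plin4 (10.97), and at the other end the plasma protein genes Mug1 (−13.98), Serpina1 (−13.69) and Serpina3c (−13.24). Against adrenal they were Myh2 (8.53), Lep (7.72) and Sncg (6.99), and the steroid-pathway genes Hsd3b2 (−12.67), Akr1b7 (−12.63) and Cyp11b2 (−12.44). Myh2, a muscle myosin, was highest in library 2, with 9260, 1571, 113, 175 and 570 RPM in adipose, against 51367 to 95875 in muscle. Its adrenal mean was 0.95 RPM ± 0.50 (SD, n = 5), so every adipose library lay far above adrenal. Against hypothalamus they were Adipoq (12.03), Fabp4 (11.97) and Plin1 (10.84), and the neuronal genes Tmem130 (−10.32), Syt1 (−10.30) and Scg2 (−10.03). Against muscle they were Pck1 (7.91), which makes glycerol phosphate for triglyceride in fat, Nnat (7.89) and Thrsp (7.72), and the sarcomere genes Myh7 (−7.97), Mybpc1 (−7.95) and Nrap (−7.75). Pck1 was as high in liver, with 2031 to 4619 RPM in adipose, against 3081 to 4507 in liver. Car3 took 2.11% ± 0.23 of adipose reads (SD, n = 5), the most of any gene there, and missed the threshold against muscle at 1.95 ± 0.67, with 18315 to 24616 RPM in adipose, against 2449 to 12755 in muscle.

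The adipose libraries differed far more in a few groups of genes than in most genes. Over 9210 genes with at least 10 RPM, the SD of log2 levels among the 5 libraries had a median of 0.23, and over the higher genes among them 0.33. The 10 genes with the largest SD were 5 mesothelial genes, 4 skeletal muscle genes and the chemokine Ccl21. Msln, mesothelin, had 12.0, 340, 0.0682, 138 and 1.39 RPM in adipose, against 10.4 to 28.4 in lung. Upk3b, a surface uroplakin of mesothelium, had 3.50, 101, 0.341, 35.6 and 0.347, against 1.22 to 12.3 in lung. Libraries 5 and 9 were high for both, above every lung library. Acta1, skeletal actin, had 2156, 385, 21.6, 42.6 and 122 in adipose, against 14717 to 26254 in muscle, and Ckm, muscle creatine kinase, had 1310, 204, 11.4, 28.8 and 65.4, against 6490 to 14505. Libraries 2 and 5 were the high ones there. Blood genes were uneven too: red cell genes summed to 544, 1410, 876, 3407 and 2513 in adipose, against 733 to 1450 in lung. The lipolysis sum was 5958 to 6423 in 4 adipose libraries and 7925 in library 12.

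**Figure D5:**
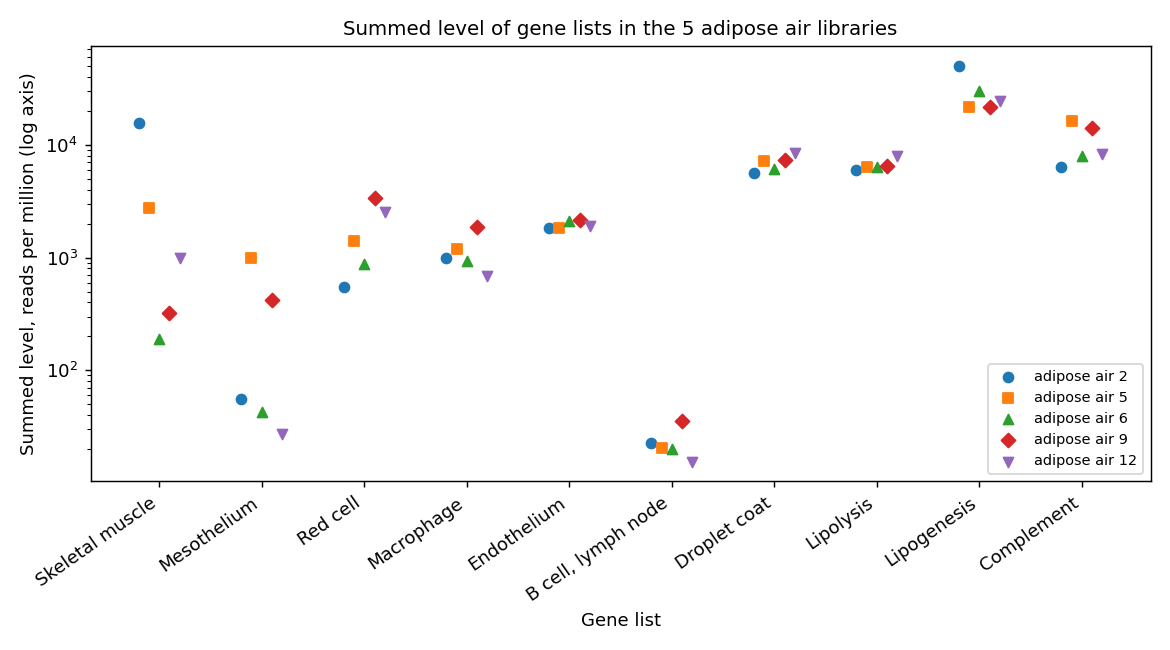
Summed RPM (log axis) of 10 gene lists in each of the 5 adipose air libraries. Skeletal muscle genes are highest in library 2 and mesothelial genes in libraries 5 and 9, while the lipolysis sum runs from 5958 to 6423 in 4 libraries and is 7925 in library 12.

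Adipocyte genes were found at low level in some other tissues. Adipoq in adrenal was 1.32% of its adipose mean, in muscle 0.797% and in lung 0.5%. Plin1 was at 2.25, 0.856 and 0.931% in adrenal, muscle and lung, and Fabp4 at 2.41, 1.58 and 1.39%. In liver and hypothalamus Adipoq, Lep, Plin1 and Fabp4 were each under 0.1% of the adipose mean. Among lung libraries Adipoq varied widely, from 0.0734 in library 9 to 112 in library 10, with 39.2 in library 2 and 11.5 in library 1. Lipe in adrenal was at 12.4% of its adipose mean and Pparg in lung at 11.5%, more than the other markers there, and Cidec in liver was at 2.27%. The part of these levels in the differences given for adrenal, muscle and lung was not tested.

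The genes nearest the threshold of 2 were Gsn at 2.00 and Xdh at 2.01 inside it, and Hcar2 and LOC316124, both at 2.00 after rounding, outside it. Gsn, which severs actin filaments, had 6511 to 13975 RPM in adipose, against 1985 to 3080 in lung; its call and that of Xdh were lost when any of several single libraries was left out. Among lower genes, Zfp385b at −2.43 and Ddah1 at −2.78 were nearest inside, and the small RNA entries SNORD82 at −1.97 (largest adjusted p = 0.137, limma) and SNORD57 at −1.84 (largest adjusted p = 0.0577, limma) nearest outside.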

How the data were processed

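The deposited tables held 1 column per library of normalized signal per gene, named by symbol, that the authors made apart for each tissue. Partek, DESeq2 and the rn6 build are named, without versions or roles, per the submitters' processing notes; for the aligner, annotation and counting rule, these sources give nothing. Each value is a whole number of reads times a library constant: within a tolerance of 0.01, 100.0% of values in every library came out whole, which gave the depths. Each column was rescaled to a sum of 1000000 (19441 symbols, after 24 entries with a date in place of a symbol were left out) and analysed as log2(value + 1).

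Genes with a mean of the 6 tissue means of at least 0.5 were tested, 16503 in all. One limma 3.58.1 fit (R 4.3.3, trend and robust moderation) held the 34 air libraries by tissue, with Benjamini-Hochberg adjustment within each of the 5 comparisons; the p given beside a gene that passed is the largest of the 5 and otherwise that against the tissue named, and SE is that of the difference to the tissue named. The procedure was tested on simulated data. Alternatives used edgeR 4.0.16 and DESeq2 1.42.0 on the recovered reads, other scalings, pseudocounts, filters and thresholds, and fewer libraries. Libraries are separate in the labels, which do not say that they are separate rats, and the p-values therefore reflect spread among libraries that may be technical. The least different pair of adipose libraries differed well beyond sampling noise (chi-square per degree of freedom 39.6). The most different adipose pair reached 152.6, and the lowest value of any air pair in the 6 tissues was 10.4. Library numbers are not stated to pair tissues, and same-numbered libraries correlated from −0.40 to 0.43 in their deviations, so no block was used.

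The members and gene lists were chosen with earlier results of these data known. The lists named 502 genes, of which 470 were in the tables (6 by synonym or letter case) and 455 were tested; besides those in the text they covered Schwann cell (0 of 8 higher in adipose than in all 5), epithelium (0 of 13), red cell (0 of 5), skeletal muscle (0 of 10), hepatocyte (0 of 10), alveolar (0 of 7), adrenal cortex (0 of 6), neuron (0 of 10), mesothelium (1 of 15, Wt1), heat shock (0 of 14) and epididymis and testis genes (3 in the tables, none tested). Genes named were the 20 furthest above the next tissue and the lower genes, with a mean of at least 10 RPM except Zfp385b, the 3 highest and 3 lowest of each comparison, the leading and trailing members of each list and all members of 5 of them, the nearest to the threshold, and the 10 most variable; others are stated as chosen after their values were seen. Start-site sequences are from RefSeq (GRCr8), which is not the build named for the tables. Hspa8, abundant in most tissues, was at most 2.9 RPM in every air library, so a low value here need not mean little RNA. The results of some list members are not reported here.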

Additional observations from a re-analysis of the deposited data

Results flagged for a closer look

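Within the 5 adipose libraries, 9 of 233 named genes and 2 of 33 list sums had 1 library whose gap to its nearest neighbour, as a share of the group's range, passed the critical value of 0.71 (Dixon's test for 5 samples); chance alone flags about 1 in 20. Library 12 was highest for the lipolysis sum (0.737) and for Mbp, a myelin gene (0.778), and lowest for the mast cell protease Cpa3 (0.804). It was also lowest for the epididymis and testis sum (0.766), where no library exceeded 0.181 RPM. Library 2 was highest for Acaca (0.768), Nid2 (0.725) and Cryab, a small heat shock protein abundant in muscle (0.741), and lowest for Esam, an endothelial adhesion gene (0.767). Library 9 was highest for Col1a1 (0.779) and Notch3, a pericyte receptor (0.829). Library 6 was highest for the glucose transporter Slc2a1 (0.711).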

How the results depend on the processing

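The counts below are genes higher and lower in adipose than in all 5 tissues (160 and 4), then genes past the threshold in either direction against adrenal (2017), hypothalamus (3762), liver (3522), lung (2053) and muscle (2636). A difference of at least 1 gave 512 and 26, then 5171, 7386, 8255, 5457 and 7296, and one of at least 3 gave 72 and 1, then 915, 2078, 1796, 894 and 940. A pseudocount of 5 gave 106 and 2, then 1127, 2330, 2059, 1109 and 1489; with 0.1, 16 were lower, and adrenal gave 3137 and muscle 4049. The deposited values without rescaling gave 281 and 16, with 3577 against adrenal, 5518 liver, 3141 lung and 4188 muscle. A limma test against a difference of 2 gave 87 higher, with 1163 against adrenal, 1162 lung and 1388 muscle. On recovered reads, edgeR gave 166 higher, 115 of them shared with the 160, and 77 lower, with 3640 against adrenal and 3414 lung; DESeq2 gave 154, 110 shared, and 107 lower, with 3675 and 3430. DESeq2 size factors gave 119 higher, 110 shared, and 12 lower, and TMM scaling 11 lower. The other alternatives stayed within 1.5 times of these counts, and no named result turned its direction.

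Leaving out 1 library at a time gave 157 to 181 higher and 4 to 5 lower, with 1994 to 2051 against adrenal, 3727 to 3804 hypothalamus, 3470 to 3584 liver, 1999 to 2133 lung and 2531 to 2790 muscle. Leaving out the pairs 2 and 5, or 5 and 9, was chosen after seeing the data. With the library number as a replicate block 159 were higher, 141 of them shared, and 4 lower; the numbers are not stated to pair the tissues. Of 117 named calls, 71 held under all 52 alternatives. The 117 pool the named calls against all 5 tissues with the most extreme differences to each tissue taken alone. The losses were among the calls against all 5 tissues, so a smaller share of those held than of the 117. The group of 5 libraries, the tissue-specific extraction and the unnamed depot limit what the differences describe.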
